A study of Mus musculus with 7 samples.

Results

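The genes of the mitochondrial ribosomal proteins were followed across 7 single mouse morulae. They were taken by symbol, as Mrpl or Mrps followed by a number and at most 1 letter, and this gave 76 of the 26586 gene symbols in the count table. By name, 47 were Mrpl genes of the large subunit and 29 were Mrps genes of the small subunit. Structures place Mrps30 and Mrps18a in the large subunit in spite of their names, and Mrps36 is now described as a subunit of the alpha-ketoglutarate dehydrogenase complex and not of the ribosome. The embryos had the C57BL/6 background, received no treatment and were taken 3 days post coitum from matings of mice that each carry 1 mutant copy of L13a (symbol Rpl13a), a gene of the cytosolic ribosome. All 7 form 1 group, replicates 1 to 7, and every library is 1 whole embryo. The labels give no genotype, sex, litter or batch, so embryos of any Rpl13a genotype from this mating may be among them and no groups were compared. Separate litters are not stated either, and part of the spread over these 7 samples may be technical. A p-value here asks whether a gene spreads more over these samples than the trend over genes of similar mean.

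Mitochondria carry ribosomes of their own, which translate the few proteins encoded in mitochondrial DNA, all of them subunits of the oxidative phosphorylation complexes. The ribosomal RNAs come from the mitochondrial genome, while every mitoribosomal protein is encoded in the nucleus, made on cytosolic ribosomes and imported. Many of the proteins have a counterpart in the bacterial ribosome and others were added in the mitochondrial lineage. In the early mouse embryo mitochondria are inherited from the oocyte, and the embryo's own nuclear genes take over from maternal transcripts during cleavage.

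All 76 genes matched 1 gene each in GENCODE release M21 of GRCm38, on 17 chromosomes. The union of all annotated exons of a gene ran from 607 to 8631 bases. Reads could be shared with other genes at some loci, because 41 of the 76 genes overlap another annotated gene and 27 of them overlap one that is itself in the count table. Mrps11 and Mrpl46, both mitoribosomal, overlap on opposite strands of chromosome 7, at 78783119 to 78792989 and at 78775236 to 78783531. Mrps24 overlaps Urgcp on the same strand, Mrpl18 overlaps Tcp1 and Mrps7 overlaps Gga3 and Mif4gd. No source used here gives the use of strand in counting, so reads in such overlaps cannot be told apart. Annotated pseudogenes are named after Mrpl23, Mrpl48 and Mrps36, and the counts of these 3 genes are uncertain for that reason. Pseudogenes under other names were not searched for, so the other genes may share reads with some as well.

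Promoter sequence from RefSeq (GRCm38.p6) was at hand for 67 of the 76 genes, over a window of 300 bases, 250 before the annotated start and 50 after it. Transcription factors known to bind promoters of nuclear genes for mitochondrial proteins include NRF1, ETS factors of the GABP type, and YY1. The ETS motif CCGGAAG, read on both strands, was in the window of 24 of 67 genes (35.8%), against 9.93% of all 27025 genes with a window and 1657 of the 8287 of those that passed the filter on low counts (a mean of at least 1 count per 1000000). The YY1 motif AAGATGGCG was in 8 windows (11.9%), against 1.64% of all genes and 3.57% of filtered genes. The NRF1 core GCATGCGC was also in 8 windows (11.9%), against 3.05% and 6.34%. At least 1 of these motifs was in 34 of the 67 windows, and a match describes the letters, not a bound site. The 250 bases before the start are printed for 3 genes that took the most counts of the family in an embryo: Mrpl17 in replicate 4, Mrpl52 in replicate 1 and Mrpl20 in replicate 5. Motifs are in capitals, and each sequence reads 5′ to 3′ on the gene's own strand. Mrpl17 (chr7:105811088-105811337, minus strand) holds the ETS motif and the NRF1 core, Mrpl52 (chr14:54426659-54426908, plus strand) holds the ETS motif in reverse, and Mrpl20 (chr4:155802628-155802877, plus strand) holds none of them.
Mrpl17: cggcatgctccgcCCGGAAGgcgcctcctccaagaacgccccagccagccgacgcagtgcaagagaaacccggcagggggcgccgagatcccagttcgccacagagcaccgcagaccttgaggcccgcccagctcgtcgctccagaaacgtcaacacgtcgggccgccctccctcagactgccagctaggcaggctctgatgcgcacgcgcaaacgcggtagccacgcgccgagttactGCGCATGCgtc
Mrpl52: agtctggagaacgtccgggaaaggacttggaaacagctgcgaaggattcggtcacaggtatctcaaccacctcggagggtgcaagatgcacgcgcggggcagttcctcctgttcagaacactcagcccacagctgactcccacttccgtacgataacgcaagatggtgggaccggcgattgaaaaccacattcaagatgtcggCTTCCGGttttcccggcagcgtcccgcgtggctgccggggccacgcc
Mrpl20: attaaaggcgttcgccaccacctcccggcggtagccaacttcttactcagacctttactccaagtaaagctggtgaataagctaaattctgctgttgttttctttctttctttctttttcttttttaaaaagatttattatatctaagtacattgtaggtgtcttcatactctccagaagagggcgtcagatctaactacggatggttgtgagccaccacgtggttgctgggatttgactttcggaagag

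Libraries differed 237-fold in total count, from 139619 in replicate 6 to 33123742 in replicate 4, with replicates 2 and 7 at 16452890 and 17122136. With 3 counts as the floor, a gene without a count could be present at up to 4.13 CPM (counts per 1000000 counts of the library) in replicate 3 and 21.5 CPM in replicate 6. In replicate 4 this limit was 0.0906 CPM. Intervals and floors cover counting error only, since amplified copies carry no molecular identifiers. Marker genes differed between embryos. The 12 oocyte markers summed to 14.0 CPM in replicate 4, against 606 to 15215 CPM in the other 6 embryos. Replicate 5 was the lowest of these, with 4 of the 12 counted and 577 of its 606 CPM from Omt2b; replicate 4 counted 8, all at low values, and the mean log2 CPM of the list was -0.23 in replicate 4 and 0.04 in replicate 5. The 8 trophectoderm markers were all counted in replicate 4, at 3804 CPM in sum. The other 6 embryos counted 1 to 6 of them, at 2.76 to 3065 CPM. The value of 3065 CPM was that of replicate 6 and came from Dab2 alone (428 counts). Replicate 2 was the next of these, at 382 CPM. Cdx2, the trophectoderm transcription factor, was counted in replicate 4 alone (3490 counts), and all 6 pluripotency markers were counted there, against 0 to 3 in the others, with none in replicates 1, 5 and 6. In replicate 6, the stroma markers summed to 4348 CPM and the markers of oviduct and uterine epithelium to 4340 CPM, the highest sums of the 7 embryos. Of the 607 stroma counts there, 592 were from Dcn, and 3 of 7 epithelial markers were counted. Replicate 2 counted all 7 epithelial markers, at 1728 CPM in sum, and all 4 stroma markers, at 96.6 CPM. Fewer cells and less RNA per cell cannot be told apart in libraries of whole embryos. The part of depth and of these markers in the results below was not tested, beyond the thinned and left-out values given beside them.

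Of the 7 embryos, replicate 4 alone had a count for every mitoribosomal gene. The number with at least 1 count was 15, 62, 9, 76, 31, 5 and 51 of 76 in replicates 1 to 7, or 19.7, 81.6, 11.8, 100, 40.8, 6.58 and 67.1%. Among the 11810 genes that passed the filter on low counts, the shares counted were 41.7, 72.1, 29.0, 84.0, 27.7, 14.8 and 69.5%. The family was thus counted less completely than genes at large in replicates 1, 3, 6 and 7 and more completely in replicates 2, 4 and 5. The order of the embryos was the same at equal depth. With every library thinned to 139619 counts, 11, 51, 8, 74, 19, 5 and 33 genes had a count in replicates 1 to 7. Of the filtered genes at large, 33.2, 57.6, 23.7, 69.1, 19.6, 14.8 and 55.3% had a count after the same thinning. The 2 genes not counted in the thinned replicate 4 were Mrpl36, for a small zinc-binding protein of the large subunit, and Mrps36.

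**Figure D1:**
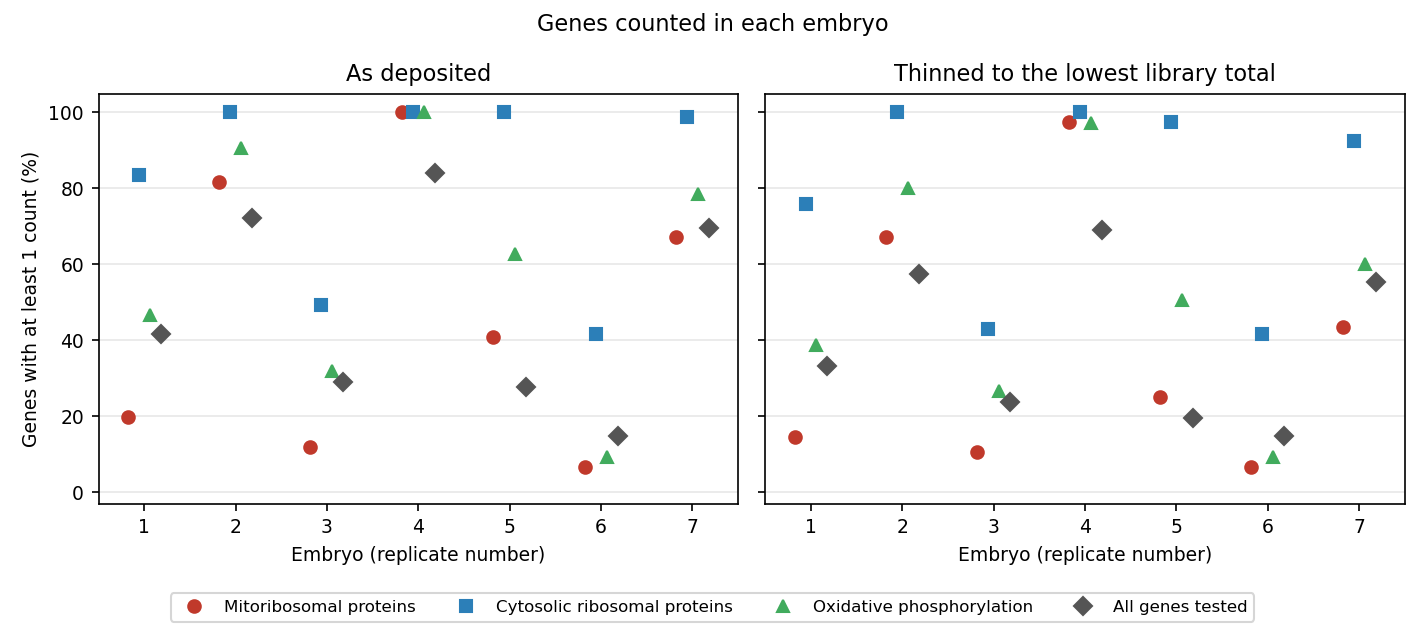
Share of genes with at least 1 count (%) in each of the 7 embryos, in the libraries as deposited and after thinning to 139619 counts, for mitoribosomal protein genes, cytosolic ribosomal protein genes, nuclear-encoded oxidative phosphorylation genes and all genes tested. Mitoribosomal genes stand at 100% in replicate 4 and at 6.58% in replicate 6 as deposited.

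No mitoribosomal gene was counted in all 7 embryos, against 3.69% of genes at large (436 of 11810). Of the 76, 2 were counted in 1 embryo, 20 in 2, 23 in 3, 21 in 4, 6 in 5 and 4 in 6 embryos. Of genes at large, 15.1% were counted in 1 embryo, 18.9% in 2, 21.3% in 3, 17.9% in 4, 14.2% in 5 and 9.0% in 6. Over the 75 filtered members the same shares were 1.33, 26.7, 30.7, 28.0, 8.0 and 5.33%. The 4 counted in 6 embryos were Mrpl45, Mrps24, Mrpl10 and Mrpl18, and the missing library was replicate 6 for all of them except Mrpl45, which had no count in replicate 3. The most frequent pattern was a count in replicates 2 and 4 alone, with 14 genes (6.95% of genes at large). A further 11 genes were counted in replicates 2, 4 and 7 alone (9.93% of genes at large), and another 11 in replicates 2, 4, 5 and 7 alone (4.06%). Of the 76 genes, 31 had no count in any of replicates 1, 3, 5 and 6, as did 36.5% of genes at large.

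**Figure D2:**
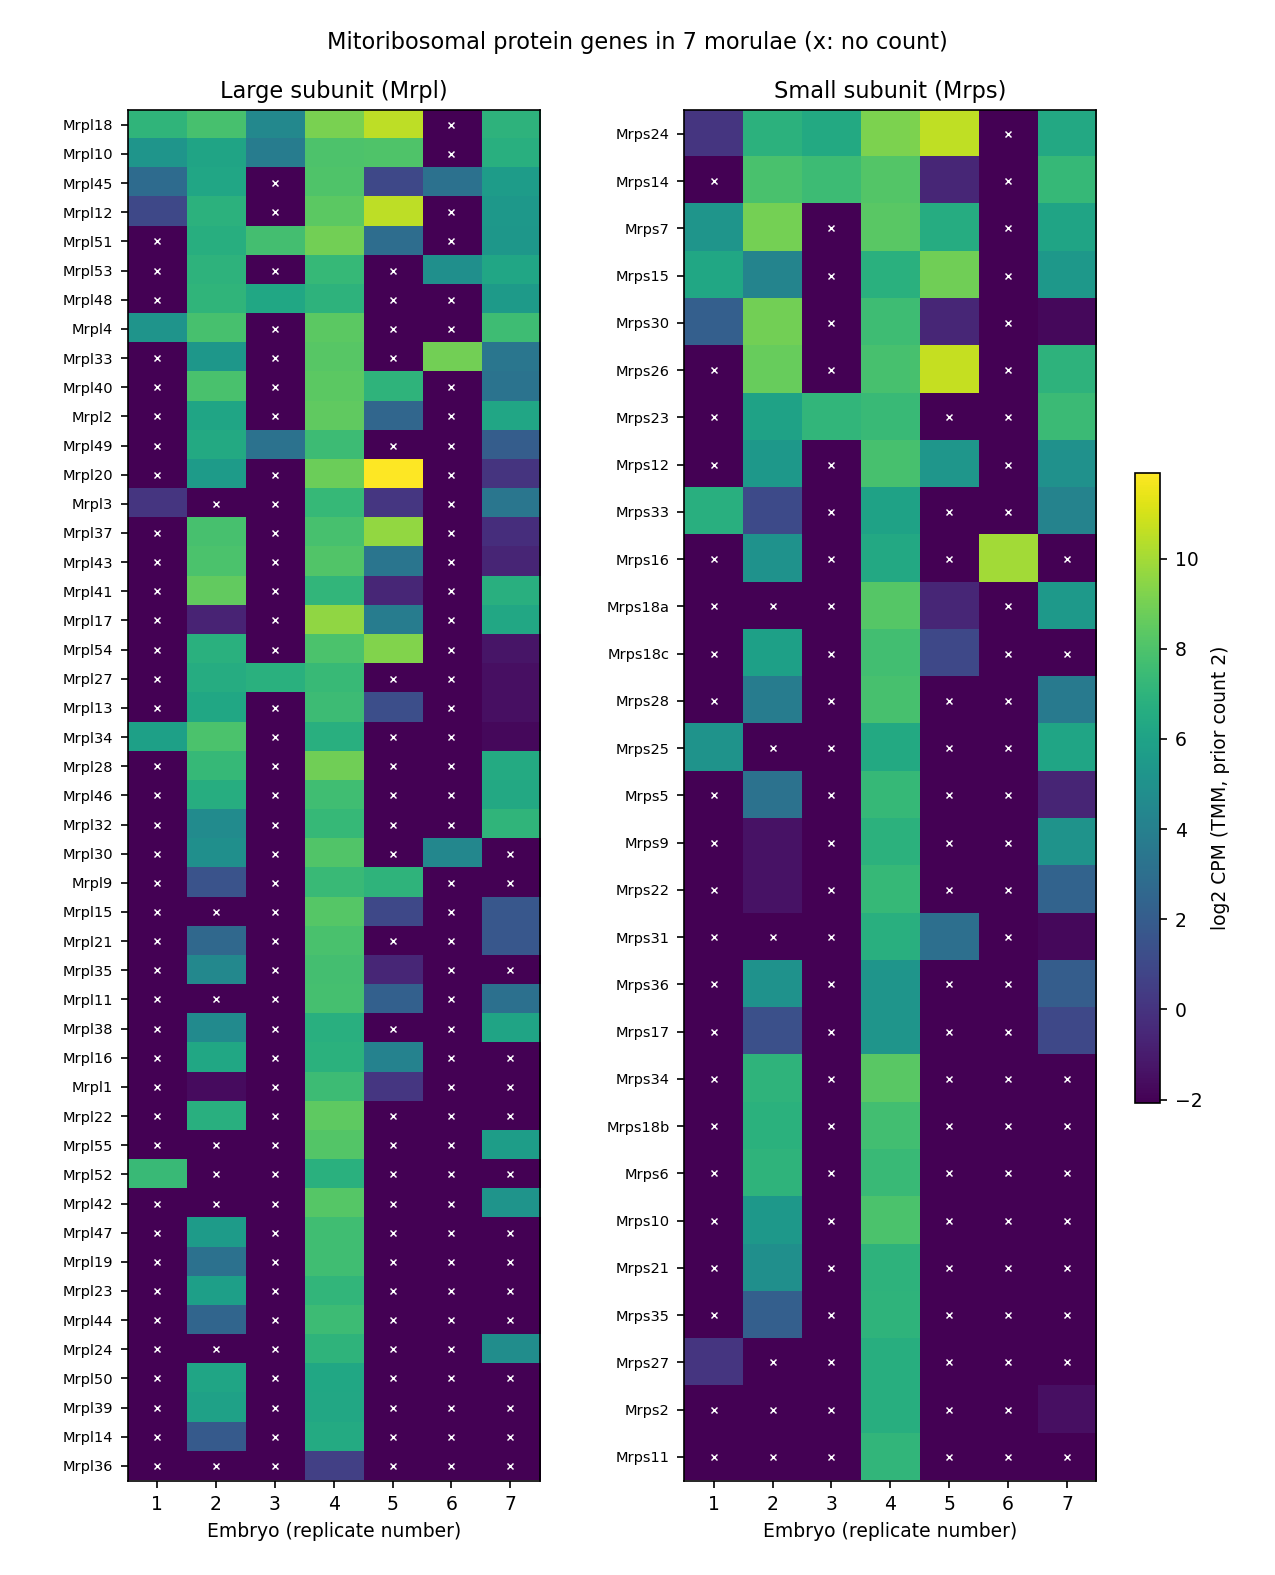
Log2 CPM (TMM factors, prior count 2) of the 47 large subunit genes and the 29 small subunit genes, 1 row per gene and 1 column per embryo. A cross marks a gene with no count; the column of replicate 4 has no cross and the column of replicate 6 has 71.

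The summed share of the library followed the number of genes counted only in part. Mitoribosomal genes took 0.0725% of counts in replicate 1 (95% Clopper-Pearson interval 0.0676 to 0.0776), 0.5004% in replicate 2 (0.497 to 0.504) and 0.104% in replicate 3 (0.0966 to 0.112). They took 1.20% in replicate 4 (1.20 to 1.21), 1.04% in replicate 5 (1.03 to 1.06), 0.261% in replicate 6 (0.235 to 0.290) and 0.226% in replicate 7 (0.224 to 0.229). The highest share was 16.6-fold above the lowest. Replicates 4 and 5 were the 2 highest, and replicate 4 was 1.15-fold above replicate 5. In replicate 5 that share came from 31 genes, against 76 genes in replicate 4.

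The embryos also differed in how the counts were spread over the family. In replicate 4, 22 genes were needed to reach 50% of the family's counts, and the leading gene, Mrpl17, which encodes a large subunit protein near the exit of the nascent chain, held 4.71% of them. In replicates 2 and 7 the number was 10 and 9 genes. In replicates 1, 3 and 5 it was 3 genes, and in replicate 6 it was 1. The 5 leading genes held 77.6, 32.5, 85.9, 17.4, 79.1, 100 and 33.3% of the family's counts in replicates 1 to 7. The gene with the most counts was another in every embryo: Mrpl52 (201 counts), Mrps7 (6817), Mrpl51 (190), Mrpl17 (18770), Mrpl20 (8845), Mrps16 (234) and Mrpl4 (3143) in replicates 1 to 7.

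**Figure D3:**
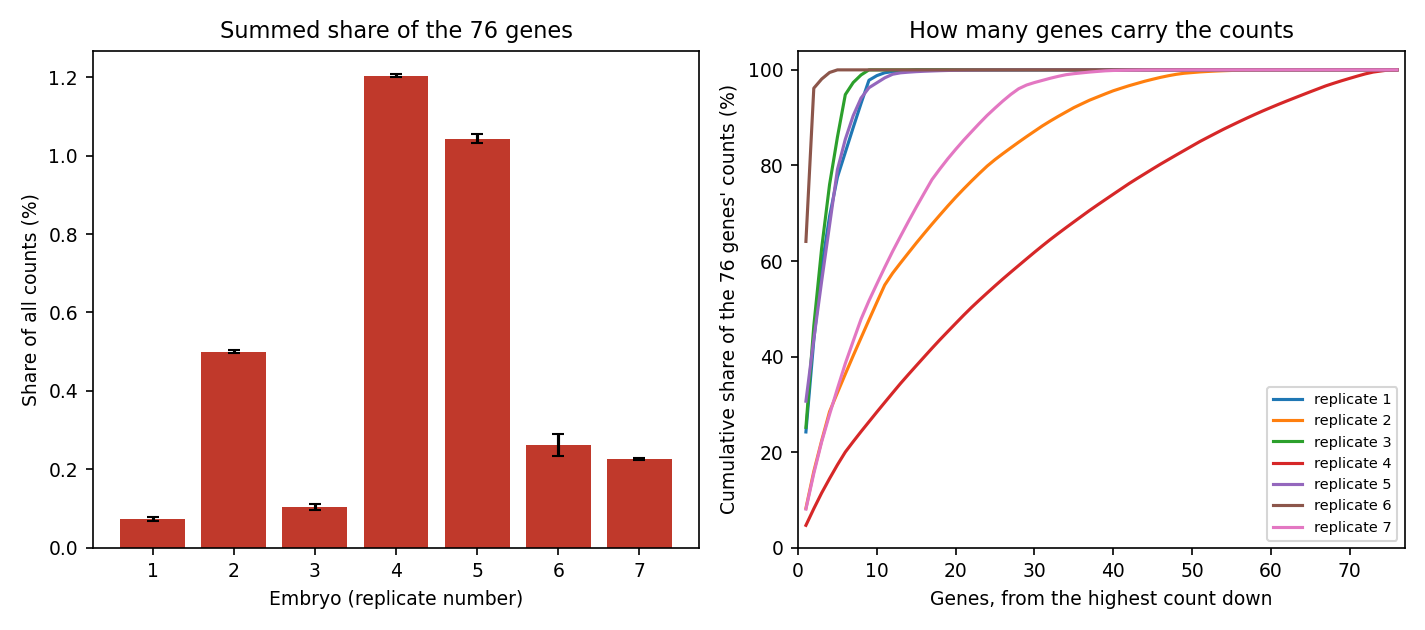
Left, share of all counts (%) taken by the 76 mitoribosomal genes in each embryo, with 95% Clopper-Pearson intervals (counting error only); right, cumulative share (%) of the family's counts against the number of genes, from the highest count down, 1 line per embryo. Replicates 4 and 5 have the 2 highest bars, at 1.20% and 1.04%, but the line of replicate 4 climbs slowest and that of replicate 5 passes 50% at 3 genes.

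In replicate 4 the 76 genes had a median of 137 CPM, with quartiles at 92.2 and 205 CPM. The lowest was Mrpl36 with 30 counts, or 0.906 CPM (95% Poisson interval 0.611 to 1.29), and the highest was Mrpl17 with 567 CPM. The next lowest were Mrps17 at 26.9 CPM, Mrps36 at 27.5 CPM and Mrps33 at 45.4 CPM. Levels were also set per kilobase of the union of all annotated exons. That union can be longer than the transcript made, so levels of different genes compare only roughly. The median in replicate 4 was 60.0 CPM per kb. The highest values were those of Mrps24 (286 CPM per kb), the counterpart of bacterial S3, and Mrpl18 (284 CPM per kb), a protein of the central protuberance of the large subunit. Mrpl22 and Mrpl28 followed at 259 and 251 CPM per kb, while Mrpl17 stood at 74.5 and Mrps17 at 4.15 CPM per kb. By this length Mrpl17 was not the leading gene, but its exon union is 7605 bases and its place in the order is uncertain.

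Of the 76 genes, 52 (68.4%) had their highest CPM in replicate 4, against 29.6% of the genes at large. Replicate 5 held the highest value of 9 genes (7.1% of genes at large), replicate 2 of 6 (18.6%) and replicate 3 of 3 (8.92%). Replicates 1, 6 and 7 held the highest value of 2 genes each, against 10.9, 5.77 and 19.2% of genes at large. Replicate 4 was also highest for 55.7% of cytosolic ribosomal protein genes, 54.7% of oxidative phosphorylation genes and 50.0% of protein import genes. Across the other lists of mitochondrial genes the share ran from 39.1 to 71.4%. A share above that of genes at large was thus not particular to the family. The 2 genes counted in no other embryo than replicate 4 were Mrps11, for the counterpart of bacterial S11 at the platform of the small subunit, with 3384 counts (102 CPM), and Mrpl36 with its 30 counts. Mrps11 shares its start region with Mrpl46, which was counted in replicates 2 (1322 counts), 4 (4772) and 7 (1344), and Mrpl36 overlaps Ndufs6. Mrps27, a pentatricopeptide repeat protein of the small subunit, stood at 75.5 CPM in replicate 4 and had a single count (0.874 CPM) outside it, in replicate 1. Mrps2, the counterpart of bacterial S2, likewise stood at 75.5 CPM in replicate 4, and outside it had a count in replicate 7 alone (0.117 CPM).

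Replicate 5 was led by a few genes at very high values. Mrpl20, whose bacterial counterpart L20 binds ribosomal RNA early in assembly, had 0, 39.3, 0, 323, 3200, 0 and 0.759 CPM in replicates 1 to 7. Its value in replicate 5 stood far above all others. Mrps26, a small subunit protein with no bacterial counterpart, had 0, 323, 0, 167, 1354, 0 and 119 CPM. Mrpl12, the stalk protein that recruits translation factors and has been described to bind the mitochondrial RNA polymerase, had 1.75, 98.1, 0, 241, 1215, 0 and 39.8 CPM. Both were highest in replicate 5 and had no count in replicates 3 and 6. In all, 7 genes exceeded 500 CPM in replicate 5 (Mrpl20, Mrps26, Mrps24, Mrpl18, Mrpl12, Mrpl37 and Mrpl54), against 1 in replicate 4. The number over 500 CPM was not taken for genes at large. Of the 76 genes, 45 (59.2%) were counted in replicate 4 and not in replicate 5, a share near that of genes at large (57.5%). Of the 45, 44 had at least 100 counts in replicate 4, a rule not applied to genes at large. Mrpl28, for the counterpart of bacterial L28, was among these, with 346 CPM in replicate 4 and 0 in replicate 5.

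**Figure D4:**
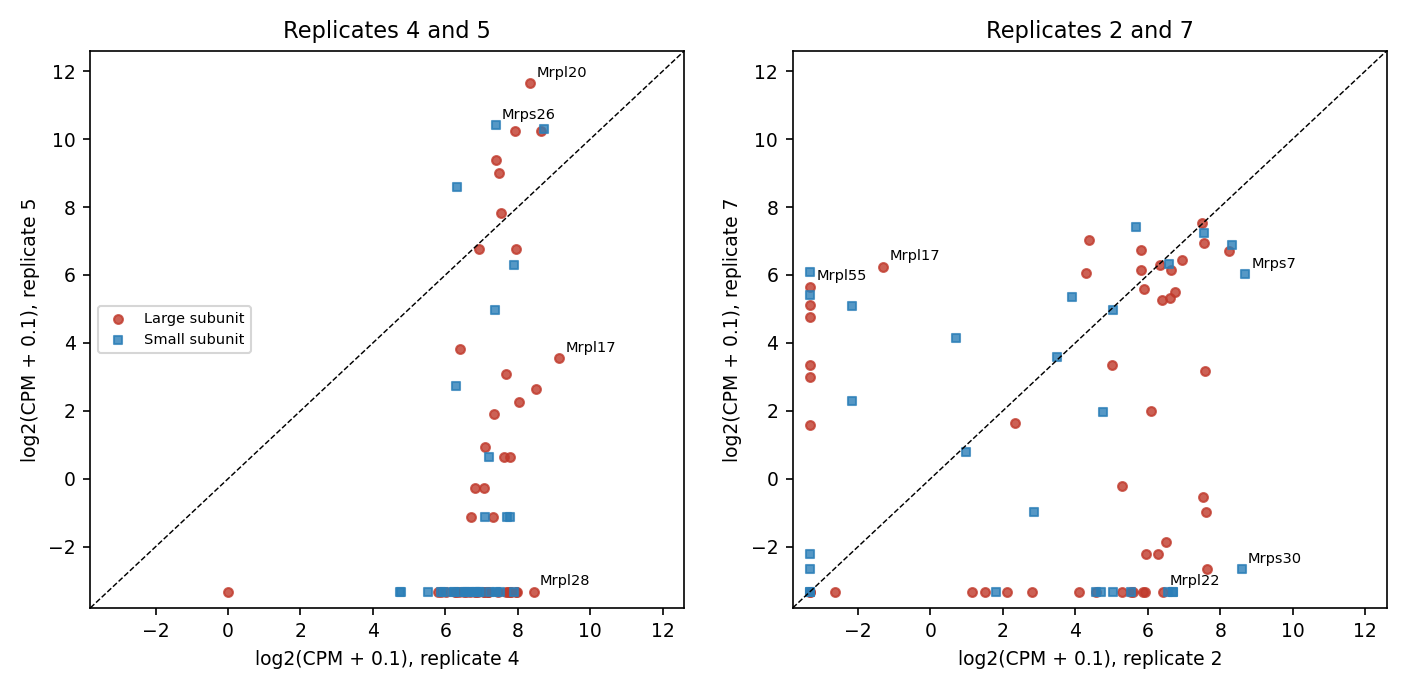
Values of the mitoribosomal genes as log2(CPM + 0.1) in replicate 4 against replicate 5 (left) and in replicate 2 against replicate 7 (right), with large and small subunit genes marked apart and the line of equal values dashed. The 45 genes along the bottom of the left panel had no count in replicate 5; on the right, 41 genes were counted in both embryos.

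Replicates 2 and 7, the pair with the most similar totals, also differed in which genes they counted. Both counted 41 of the 76 genes, while 21 were counted in replicate 2 alone, 10 in replicate 7 alone and 4 in neither. The genes counted in 1 of the pair thus made up 40.8%, against 30.8% of the genes at large. With at least 100 counts in replicate 2 and none in replicate 7 there were 16 genes, among them Mrps34 (1720 counts), Mrps6 (1704), Mrps18b (1546) and Mrpl22 (1419). The reverse held for 7 genes: Mrps25 (1165 counts), Mrpl55 (862), Mrps18a (731), Mrpl42 (595), Mrpl24 (461), Mrpl3 (173) and Mrpl11 (136). Genes at large were not counted by this rule, so these numbers describe the genes named and not a trait of the family. Mrps30 had 6347 counts in replicate 2 and 1 in replicate 7.

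Replicates 3 and 6 counted few genes, 9 and 5, and shared 0 of them, while 7.81% of genes at large were counted in both. A share of 0 says little for lists this short. Replicate 1 shared 3 of its 15 genes with replicate 3 and 1 with replicate 6. In replicate 3, Mrpl51 (262 CPM), Mrps14 (220 CPM), Mrps23 (169 CPM) and Mrpl27 (138 CPM) had at least 100 counts each, and the last 3 were at their highest there. In each of these 3 the next embryo lay within the 95% Poisson interval of replicate 3 (for Mrps23, 141 to 202 CPM). In replicate 6, Mrps16, the counterpart of bacterial S16, had 234 counts, or 1676 CPM (95% Poisson interval 1468 to 1905). Replicates 2 and 4 had 26.2 and 59.3 CPM and the rest 0, so replicate 6 was 28.3-fold above the second highest. Mrpl33 had 117 counts there (838 CPM, interval 693 to 1004), and Mrpl53, Mrpl30 and Mrpl45 had 7, 5 and 2 counts. In replicate 1, Mrpl52, a protein of the mitochondrial lineage, had 176 CPM; replicate 4 had 82.7 CPM and the other 5 had 0. Mrps33 was likewise highest in replicate 1, at 110 CPM, against 45.4 CPM in replicate 4.

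The genes with the highest median over the embryos were Mrps14, Mrpl18, Mrps26, Mrps24, Mrps7, Mrpl10, Mrps23 and Mrpl53. Mrpl18 had 139, 187, 26.2, 397, 1218, 0 and 122 CPM in replicates 1 to 7, and Mrps24 had 0.874, 95.6, 103, 419, 1268, 0 and 79.6 CPM. Mrpl10, which anchors the stalk of Mrpl12 proteins, had 37.6, 55.7, 16.5, 186, 225, 0 and 106 CPM. These 3 were counted in 6 embryos and were highest in replicate 5, with replicate 4 next. Mrps14, the counterpart of bacterial S14 in the head of the small subunit, had 0, 188, 220, 206, 0.362, 0 and 150 CPM. It stood within a narrow range in replicates 2, 3, 4 and 7 and was at or near 0 in the other 3. Mrps7, also of the head, had 37.6, 414, 0, 240, 78.5, 0 and 65.1 CPM, with its highest value in replicate 2. Mrps23 was counted in replicates 2, 3, 4 and 7, at 50.7 to 169 CPM, and Mrpl53 in replicates 2, 4, 6 and 7, at 50.1 to 113 CPM.

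Both subunits had their highest mean in replicate 4 and their lowest in replicate 6. The mean log2 CPM of the 75 genes that passed the filter was -0.85, 4.05, -1.11, 7.55, 0.65, -1.51 and 1.89 in replicates 1 to 7, or 1.52 ± 3.30 (SD, n = 7); a gene without a count stands at -2.07 on this scale. Over all 11810 genes the same means were 0.92, 3.10, 0.09, 4.03, -0.12, -0.90 and 2.73, or 1.41 ± 1.88 (SD, n = 7). The family lay 3.52 above genes at large in replicate 4 and 1.77 below them in replicate 1. Large subunit genes averaged -0.95, 4.41, -1.09, 7.74, 0.95, -1.42 and 2.03, and small subunit genes -0.68, 3.47, -1.13, 7.25, 0.17, -1.65 and 1.66. The difference, large minus small, was positive in 6 of 7 embryos and averaged 0.37 ± 0.42 (SD, n = 7), with no test. Replicate 1 was the embryo in which it was negative, at -0.27. It is a difference of log2 values not set per length.

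The genes were also divided into proteins with a bacterial counterpart and those of the mitochondrial lineage, a division made from general knowledge of mitoribosome structure and not from the deposited files; the difference between the classes was not tested. Of the 48 genes with a bacterial counterpart, 9, 39, 5, 48, 21, 3 and 30 were counted in replicates 1 to 7. Of the 27 genes of the mitochondrial lineage, 6, 22, 4, 27, 10, 2 and 20 were counted. Mrpl45, which tethers the mitoribosome to the inner membrane, belongs to the second class and had 6.99, 59.6, 0, 196, 1.45, 14.3 and 48.0 CPM. It had one of the smallest spreads of the family, 3.43 as SD of log2 CPM. Mrps18a, Mrps18b and Mrps18c are paralogs that descend from 1 bacterial protein, S18, and occupy different places in the mitoribosome. Mrps18a had 220 CPM in replicate 4, 0.362 in replicate 5, 42.7 in replicate 7 and 0 in the rest. Mrps18b had 94.0 CPM in replicate 2, 151 in replicate 4 and 0 in the rest. Mrps18c had 46.4 CPM in replicate 2, 148 in replicate 4, 1.45 in replicate 5 and 0 in the rest. All 3 were highest in replicate 4, and that embryo was the only one in which the 3 were counted together.

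The spread of single genes was large throughout and no gene stood out against it. The test set the edgeR quasi-likelihood dispersion of each gene against the trend over genes of similar mean. It called 0 of 75 mitoribosomal genes and 0 of 11810 genes (0.0%), with a lowest Benjamini-Hochberg adjusted p of 0.869 for both. At an unadjusted edgeR p under 0.05 there were 67 genes and 0 mitoribosomal genes, and DESeq2 and limma also called 0. On simulated counts at the dispersion of these libraries (9.03), the test recovered 0% of 200 genes with 20-fold raised dispersion, so a count of 0 says little about any 1 gene. Mrpl20 had the largest SD of log2 CPM in the family, 5.85, followed by Mrps26 (5.77), Mrpl37 (5.44), Mrpl54 (5.33) and Mrpl28 (5.19). The smallest SDs were those of Mrps17 (2.80), Mrps27 (3.28), Mrps2 (3.28), Mrpl14 (3.32) and Mrpl45 (3.43). Apart from Mrpl45, these were genes near or at 0 in most embryos: Mrps17 reached 26.9 CPM in replicate 4 and Mrpl14 reached 65.1 CPM there, against at most 2.74 CPM elsewhere for either gene.

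The median SD of log2 CPM was 4.32 over the 75 mitoribosomal genes, against 3.63 over all genes tested. The family also had higher levels, with a median of mean CPM of 36.7 against 20.6. Among genes of mean CPM at least 10, the median SD was 4.33 over 72 mitoribosomal genes and 4.06 over all genes. The part of level in these SDs was not tested. The median SD was 4.38 over cytosolic ribosomal protein genes, 4.53 over oxidative phosphorylation genes and 4.68 over protein import genes. Assembly factors had 3.96, translation factors 4.10 and genes of mitochondrial DNA and RNA upkeep 3.57. A median above that of all genes was thus not particular to the family. With all libraries thinned to 139619 counts it was 1.62, against 1.25 over all genes, and the SD of the family's mean was 1.27. Of the 75 mitoribosomal genes, 62 (82.7%) lay above the median SD of all genes (3.63), where 50.0% of genes at large do by construction. This rested on replicate 4. Without it, 41 of 75 lay above the median of all genes, and the medians were 3.39 for the family and 3.27 for all genes. Without any 1 of the other embryos, 67 or 68 of 75 lay above it. The SD of the family's mean log2 CPM was 1.99 without replicate 4, against 3.30 with it.

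**Figure D5:**
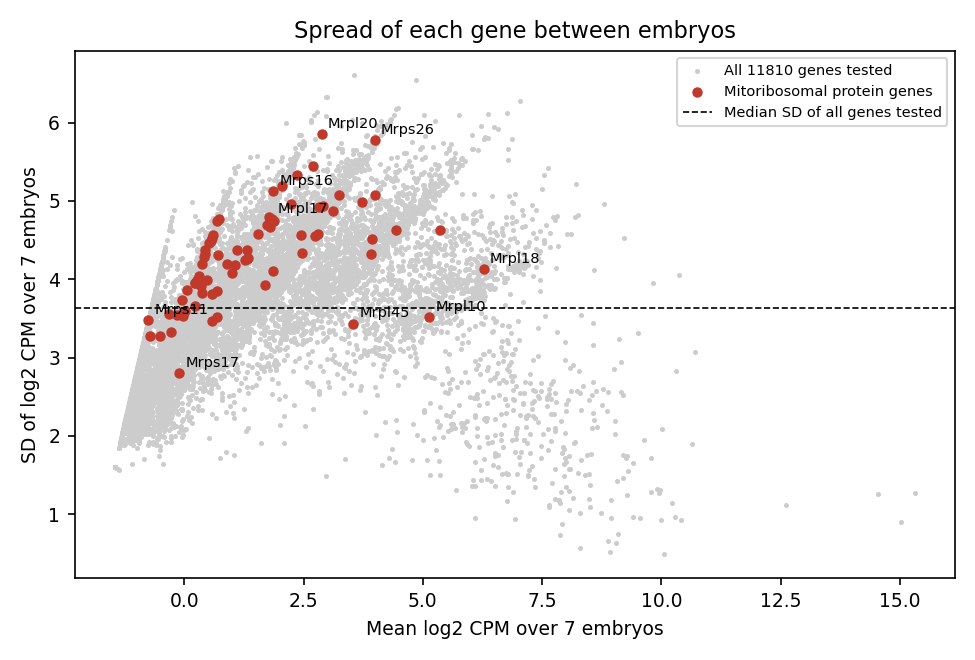
SD of log2 CPM over the 7 embryos against mean log2 CPM, 1 point per gene, for the mitoribosomal genes and all 11810 genes tested, with the median SD of all genes (3.63) as a dashed line. Of the 75 mitoribosomal genes, 62 lie above the line, from Mrpl20 at 5.85 down, and Mrps17 is lowest at 2.80.

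Genes that act with the mitoribosome gave the same order of embryos only in part. Cytosolic ribosomal protein genes were counted more completely, 66, 79, 39, 79, 79, 33 and 78 of 79 in replicates 1 to 7. Replicates 4 and 5 thus both counted all 79, and their cytosolic sums differed little, with replicate 4 at 0.983 times replicate 5. Mitoribosomal counts made up 9.06% (95% Clopper-Pearson interval 8.48 to 9.67) of all ribosomal protein counts in replicate 1, 20.4% (20.3 to 20.5) in replicate 2 and 12.1% (11.3 to 12.9) in replicate 3. In replicates 4 to 7 the shares were 14.7% (14.7 to 14.8), 12.8% (12.7 to 12.98), 14.5% (13.1 to 15.9) and 26.5% (26.2 to 26.7). The mitoribosomal part was thus highest in replicates 7 and 2 and lowest in replicate 1.

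Nuclear-encoded oxidative phosphorylation genes were counted in 35, 68, 24, 75, 47, 7 and 59 of 75 cases in replicates 1 to 7. By number counted, this is the same order of embryos as that of the mitoribosomal genes. For every 100 oxidative phosphorylation counts there were 10.3, 46.0, 22.0, 46.5, 53.9, 19.2 and 46.3 mitoribosomal counts, so replicates 2, 4 and 7 lay close together and replicates 1, 3 and 6 lay lower. Cox8a, a cytochrome c oxidase subunit and the gene of highest mean CPM in the oxidative phosphorylation list, was counted in all 7 embryos, at 442 to 2151 CPM. It was the only 1 of those 75 genes counted in all 7, against 0 of the mitoribosomal genes. The mitoribosomal subunits that carry other names (Dap3, Ptcd3, Chchd1, Aurkaip1, Gadd45gip1, Ict1 and Mrp63) were counted in 3, 7, 1, 7, 3, 0 and 5 of 7 cases. Chchd1 resembled the genes highest in replicate 5, with 516 CPM there; replicates 4 and 2 had 99.5 and 6.69 CPM.

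Mitoribosome assembly factors, which modify ribosomal RNA and mature the subunits, were counted in 6, 13, 2, 23, 4, 0 and 12 of 23 cases, and mitochondrial translation factors in 7, 8, 4, 14, 3, 0 and 9 of 14. All of both lists were counted in replicate 4 and none in replicate 6. Their summed values were ordered otherwise than the mitoribosomal genes. Assembly factors summed to 744, 1420, 82.7, 819, 87.9, 0 and 754 CPM in replicates 1 to 7, with replicate 2 highest. Nsun4, an RNA methyltransferase of assembly, had 219, 280, 0, 6.22, 0, 0 and 314 CPM. Translation factors summed to 682, 520, 1608, 903, 1258, 0 and 363 CPM, with replicate 3 highest, where Mtfmt, which formylates the initiator methionine, had 1496 CPM. Tufm, the elongation factor that brings aminoacyl-tRNA to the mitoribosome, had 6.99, 69.6, 0, 248, 0, 0 and 0 CPM. None of the genes of these lists passed the edgeR test of spread. As 0 genes did in all, this says little about these lists at the dispersion of these libraries.

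Protein import genes, through which mitoribosomal proteins reach the matrix, were counted in 10, 23, 11, 24, 18, 4 and 18 of 24 cases. Tomm5, a small subunit of the outer membrane translocase, had 0, 271, 234, 695, 1862, 0 and 76.6 CPM, and like 9 mitoribosomal genes was highest in replicate 5. Genes for upkeep of mitochondrial DNA and RNA were counted in 4, 9, 3, 12, 3, 0 and 7 of 12 cases. In this list too, replicate 4 was the only embryo with all genes counted.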

How the data were processed

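Oligo-dT capture and SMART-Seq v4 gave cDNA of 7 single embryos, and Nextera XT gave the libraries, per the labels' protocols. The authors deposited whole-number counts and log2 values; the submitters' processing notes name HISAT2 2.0.5, featureCounts 1.5.0-p2, Subread, limma and GRCm38. No source used here gives their order, settings, annotation or use of strand. The deposited log2 values equal log2 CPM after quantile normalization, recomputed here to within 4.97e-14, and served for alternatives. Totals ran from 139619 to 33123742 counts, which limits what the shallow libraries can show.

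CPM are counts over the library total. Log2 CPM used TMM factors and a prior count of 2 in edgeR 4.0.16 (R 4.3.3). Genes of mean CPM at least 1 (11810, among them 75 of 76 mitoribosomal genes, without Mrpl36) entered the test of spread, a one-sided F test of each gene's quasi-likelihood dispersion against the trend, adjusted over all 11810 genes by Benjamini-Hochberg at 0.05. On simulated counts at a dispersion of 0.1 it recovered 90% of 200 genes with 20-fold raised dispersion and made 6 false calls among 11551 genes. DESeq2 1.42.0 and limma 3.58.1 were alternatives, beside other scalings, filters, prior counts, thinning and left-out libraries. Intervals are at 95%. Of the comparison lists, entries in the table were used: 23 of 29 assembly factors, 14 of 15 translation factors, 12 of 16 genes of DNA and RNA upkeep and 24 of 25 import genes. The blood and immune markers, 4 of 5 in the table, summed to 0 to 129 CPM.

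The members and lists were chosen with earlier results of these data known. Genes were named by rule: the 8 highest medians, the 5 largest and 5 smallest SDs, the leading gene of each embryo, genes counted in at most 1 embryo, Mrps18a, Mrps18b, Mrps18c and Mrpl12, and the leading gene of a comparison list. Other genes were named as examples after their values were seen.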

Additional observations from a re-analysis of the deposited data

Results flagged for a closer look

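Values of the mitoribosomal summaries and of the named genes were searched for an embryo far from the other 6, by the gap to the nearest embryo as a share of the range (Dixon's test at 95%). Of 36 items, 5 were past its critical value. Chance flags about 1 in 20 groups, but most of the items are genes named for their values, and that rate does not apply to them. The 4 genes with replicate 4 apart were named because they were counted in at most 1 embryo (Mrps11, Mrpl36) or had the smallest SDs (Mrps2, Mrps27), which favours this pattern. Mrps11 stood at 7.13 log2 CPM and Mrpl36 at 0.564 in replicate 4, with all 6 other embryos at -2.07, the value of a gene without a count. Mrps2 stood at 6.69 log2 CPM in replicate 4, with the next embryo at -1.48, and Mrps27 at 6.69, with the next at 0.118. Mrpl10 stood at -2.07 in replicate 6, the library with the lowest total, with the next embryo at 3.79.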

How the results depend on the processing

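Across 14 results and 99 alternatives, 16 values moved beyond the set limits. A turn in direction was looked for in the large minus small difference alone. The rule could not flag one there, because the difference (0.367) is smaller than its SD (0.420). The difference was positive in every alternative. No paired analysis was possible because the labels give 1 group. The test of spread called 0 mitoribosomal genes in all 15 alternatives, which says little at this dispersion. The median SD of log2 CPM, 4.32, was 5.30 with a prior count of 0.5, 3.69 with a prior count of 5 and 1.62 in thinned libraries, and 3.39 to 4.54 with 1 replicate left out. The SD of the family's mean was 1.27 in thinned libraries and 4.09 with the median over genes in place of the mean, and 1.99 to 3.65 with 1 replicate left out. Both thinned SDs carry the higher floor that the prior count sets at low depth. The fold between the highest and lowest summed share was 20.9 without the leading gene of each library and 11.6 to 16.6 with 1 replicate left out. With at least 10 counts required, 9, 20 and 2 genes were counted in replicates 1, 5 and 6, and thinning left 19 in replicate 5 and 33 in replicate 7. The large minus small difference was 0.266 to 0.478 with 1 replicate left out, the highest without replicate 1 (0.478 ± 0.334, SD of 6 embryos). Added after seeing the data: 54 to 59 of the 76 genes were highest in replicate 4 with another replicate left out. Of the 11810 genes at large, 3657 to 4515 were. Without both replicates 3 and 6 the numbers were 56 and 3911. They were 57 and 3831 with TMM factors, 47 and 3121 with DESeq2 size factors, and 47 and 3257 in thinned libraries. Also added then, 41 to 68 of the 75 genes lay above the median SD with 1 replicate left out, the lowest without replicate 4.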
